A study of Mus musculus with 12 samples.

Results

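The 8 genes described here are enzymes and regulators of club cells and of the proximal airway epithelium: Cyp2f2, Cbr2, Cyp2s1, Aldh1a1, Aldh1a7, Sox2, Krt15 and Hes1. They were chosen by name, with earlier results of these data known. Every probe that the array's annotation gives to 1 of these symbols was taken. This gave 9 probes out of 25697 on the array. A total of 8 of these probes, 1 for each gene, were above background on at least 4 of the 12 arrays (detection p under 0.01), as were 11841 probes over the whole array, which stand for 8311 named genes. The ninth probe, a second one for Sox2, was above background on 0 of 12 arrays, with levels between 4.33 and 4.68.

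Club cells are the secretory cells of the conducting airways, and in the mouse they carry a dense set of enzymes that oxidise and reduce foreign and internal compounds. During lung development the branching epithelium divides into a proximal part that expresses SOX2 and makes the airways, and a distal tip that expresses SOX9 and makes the alveoli. Notch signalling within the proximal epithelium, with HES1 as a target, favours the secretory fate over the ciliated one. The growth factors that pattern this epithelium come largely from the surrounding mesenchyme.

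Messenger RNA was measured in whole lungs of mouse embryos at stage E15.5, with 4 specimens of each of 3 genotypes on the strain background 129/Sv. The control embryos were Dermo1+/Cre. A second group, called here 1 Mek1 allele, was Mek1+/flox;Mek2-/-;Dermo1+/Cre, and the other mutant group, called here double mutant, was Mek1flox/flox;Mek2-/-;Dermo1+/Cre. MEK1 and MEK2, the products of Map2k1 and Map2k2, phosphorylate and switch on ERK. All 12 embryos carried the Cre, which is driven from the Twist2 locus in embryonic mesenchyme, so Mek1 was deleted only in cells with a history of that driver. Mek2 was missing from every cell of both mutant groups, the airway epithelium included, and the controls had all their Mek alleles. Whether a specimen was 1 lung or a pool, and whether the embryos of a group came from separate litters, is left unsaid in the labels, so p-values measure the spread between these specimens. In RNA of whole lungs, more cells of a type and more RNA per cell cannot be told apart.

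The arrays had between 10467 and 11878 probes above background, and raw upper quartiles between 227 and 390 intensity units. The 2 brightest arrays were control replicates 2 and 3, and no other array exceeded 306. The probe for Map2k1 was above background on 0 of 12 arrays, so the Mek1 deletion could not be checked here. The probe for Map2k2 fell by 0.74 ± 0.12 on the log2 scale (SE, n = 4 per group) in double mutants and by 1.02 ± 0.12 with 1 Mek1 allele against controls (adjusted p 0.00709 and 0.00182 by limma), and was still above background on 12 of 12 arrays. The position of this probe relative to the deleted part of the gene is not known here. Of the 18 listed markers of lung epithelium as a whole, 17 were above background on enough arrays to be tested. Spint2, among the 17, was above background on 0 controls, 1 lung with 1 Mek1 allele and 3 double mutants. It is included in the mean of these genes given below.

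The promoters of Cyp2f2, Cbr2 and Cyp2s1 are shown because these 3 enzymes moved together across the arrays. Each window runs from 250 bases before the transcription start to the 50th base of the transcript and comes from RefSeq on GRCm38.p6. Letters of an N box (CACNAG on either strand, the site that HES factors bind) are in capitals. The Cyp2f2 window is chr7:27119705-27120004 on the plus strand, the Cbr2 window chr11:120731972-120732271 on the minus strand and the Cyp2s1 window chr7:25816476-25816775 on the minus strand.
Cyp2f2: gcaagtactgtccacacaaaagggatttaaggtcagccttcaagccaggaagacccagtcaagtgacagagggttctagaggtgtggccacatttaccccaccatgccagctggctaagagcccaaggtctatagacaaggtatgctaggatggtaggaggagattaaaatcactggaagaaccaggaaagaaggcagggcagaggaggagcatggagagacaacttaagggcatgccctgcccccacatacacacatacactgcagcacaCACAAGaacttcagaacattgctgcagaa
Cbr2: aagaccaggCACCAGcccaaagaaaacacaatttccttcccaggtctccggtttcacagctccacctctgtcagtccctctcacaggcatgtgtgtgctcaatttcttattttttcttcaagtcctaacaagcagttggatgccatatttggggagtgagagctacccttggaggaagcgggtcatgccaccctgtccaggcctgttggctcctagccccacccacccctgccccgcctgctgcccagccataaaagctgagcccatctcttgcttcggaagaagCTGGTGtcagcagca
Cyp2s1: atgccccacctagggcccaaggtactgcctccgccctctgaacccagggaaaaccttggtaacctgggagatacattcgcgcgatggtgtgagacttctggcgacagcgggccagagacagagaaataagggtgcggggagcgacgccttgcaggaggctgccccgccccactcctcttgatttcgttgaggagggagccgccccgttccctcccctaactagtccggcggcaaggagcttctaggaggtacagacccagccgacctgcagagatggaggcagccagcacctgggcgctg

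Counted from the first transcribed base, the Cyp2f2 window held 1 N box, 21 bp downstream, and the Cbr2 window held 2, at -241 bp and 35 bp. The Cyp2s1 window held none, and 42.5% of the 32851 promoter windows in the table held at least 1. E boxes (CANNTG, a palindromic pattern read on both strands at once) were present in all 3 windows, at -191 and -143 bp for Cyp2f2, -163 and -118 bp for Cbr2 and 37 bp for Cyp2s1, against 72.3% of all windows. None of the 3 windows held, on either strand, the RBPJ letters GTGGGAA (6.38% of all windows), the antioxidant response core TGACNNNGC (12.4%), the NKX2-1 core CTTGAG (15.9%) or the SOX core ACAAAG (18.7%). In this search no motif was shared by the 3 windows apart from the E box. Among the other members, 3 had windows in the table: that of Sox2 held the SOX core at -206 bp, 1 of the 2 windows of Aldh1a1 held it at -235 bp, and that of Aldh1a7 held an N box at 18 bp. These matches describe letters and were not tested as binding sites.

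**Figure D1:**
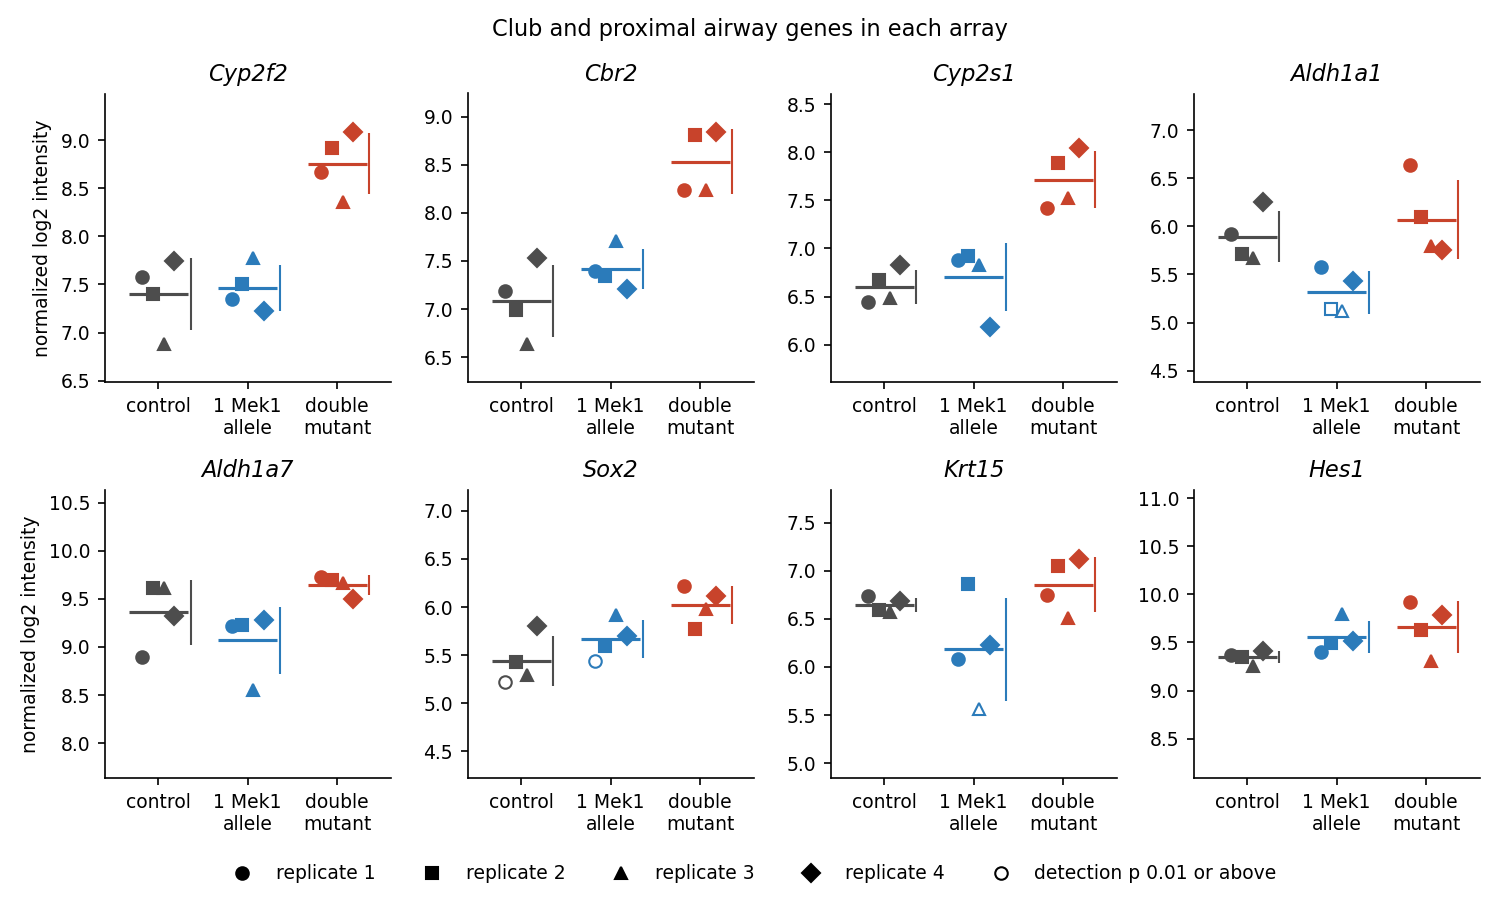
Normalized log2 level of each of the 8 genes on each of the 12 arrays, grouped as control, 1 Mek1 allele and double mutant (4 arrays each). Points are arrays, open where the probe was not above background, and lines are group means with the SD; each panel spans the same log2 range. The double mutant points lie apart from both other groups for Cyp2f2, Cbr2 and Cyp2s1, and the groups lie closer together for the other genes.

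The 3 enzymes of xenobiotic metabolism, Cyp2f2, Cbr2 and Cyp2s1, were higher in double mutant lungs than in both other genotypes. With the background correction used here the differences were 2.02-fold to 2.72-fold. Lungs with 1 Mek1 allele did not differ detectably from controls in any of them. Levels are background-corrected, quantile-normalized log2 intensities, given by replicate 1 to 4 within each group, and one probe's level is not comparable with another's.

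Cyp2f2 encodes a cytochrome P450 of club cells that activates naphthalene, the basis of the classic club cell injury model in mice. Its level was 7.58, 7.40, 6.88 and 7.75 in controls. It was 7.35, 7.50, 7.77 and 7.22 with 1 Mek1 allele, and 8.67, 8.92, 8.35 and 9.08 in double mutants. The lowest double mutant lay 0.61 above the highest control and 0.58 above the highest lung with 1 Mek1 allele, so the double mutants did not overlap with either group. In raw intensity the controls ran from 257 to 351 units, the lungs with 1 Mek1 allele from 231 to 242 and the double mutants from 456 to 591. Cyp2f2 rose by 1.35 ± 0.20 (SE of the log2 difference) against controls, a 2.56-fold difference (95% interval of the log2 difference 0.93 to 1.78, adjusted p 0.00393 by limma), which ranked it 21 by p among the 8311 genes. Against 1 Mek1 allele it rose by 1.29 ± 0.20, or 2.45-fold (interval 0.87 to 1.72, adjusted p 0.0261), and ranked 5.

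Cbr2, carbonyl reductase 2, reduces carbonyl compounds and is abundant in mouse lung. Its level was 7.19, 6.99, 6.64 and 7.53 in controls. It was 7.40, 7.34, 7.71 and 7.21 with 1 Mek1 allele, and 8.23, 8.81, 8.24 and 8.84 in double mutants. Every double mutant again lay above all 8 other arrays, and the raw intensities were 217 to 289 units in controls, 214 to 242 with 1 Mek1 allele and 365 to 520 in double mutants. Cbr2 rose by 1.44 ± 0.20 against controls, or 2.72-fold (interval 1.02 to 1.87, adjusted p 0.00277 by limma, rank 16). Against 1 Mek1 allele it rose by 1.11 ± 0.20, or 2.17-fold (interval 0.69 to 1.54, adjusted p 0.0303).

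Cyp2s1 encodes another cytochrome P450, found in epithelia that face the outside, the airway among them. Its level was 6.44, 6.67, 6.48 and 6.82 in controls. It was 6.88, 6.92, 6.83 and 6.18 with 1 Mek1 allele, and 7.42, 7.88, 7.52 and 8.04 in double mutants. The double mutants did not overlap with either group, and replicate 4 with 1 Mek1 allele was the lowest of all 12. Raw intensities were 168 to 247 units in controls, 158 to 199 with 1 Mek1 allele and 247 to 337 in double mutants. Cyp2s1 rose by 1.11 ± 0.18 against controls, or 2.16-fold (interval 0.72 to 1.5, adjusted p 0.00709 by limma, rank 33), and by 1.01 ± 0.18 against 1 Mek1 allele, or 2.02-fold (interval 0.63 to 1.40, adjusted p 0.0303).

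The lungs with 1 Mek1 allele differed from controls by 0.06 for Cyp2f2 (interval -0.36 to 0.48), by 0.33 for Cbr2 (-0.10 to 0.75) and by 0.10 for Cyp2s1 (-0.29 to 0.49). The limma adjusted p-values were 0.906, 0.415 and 0.824. Leaving out 1 array moved these values by over 1.5 times, none of them to a call: Cyp2f2 ran from -0.11 to 0.18, Cbr2 from 0.18 to 0.48, and Cyp2s1 from 0.03 to 0.27, the last without replicate 4 with 1 Mek1 allele. With all arrays, the 3 upper bounds lie below the estimated differences between double mutants and controls.

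The rises against controls of Cyp2f2 and Cbr2 passed under each of the 30 other settings tried, with adjusted p up to 0.0493 and 0.0432. That of Cyp2s1 lost its call without control replicates 2 and 3, the 2 brightest arrays, at a difference of 1.08 (adjusted p 0.0965), and with the mean of the general epithelial genes as a covariate, at 1.09 (0.0749). Without background correction its difference was 0.68, and it passed. On the authors' log2 values the rises of Cyp2f2, Cbr2 and Cyp2s1 were smaller, at 1.01, 1.02 and 0.69 against controls. Against 1 Mek1 allele they were 0.96, 0.81 and 0.62 on those values.

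**Figure D2:**
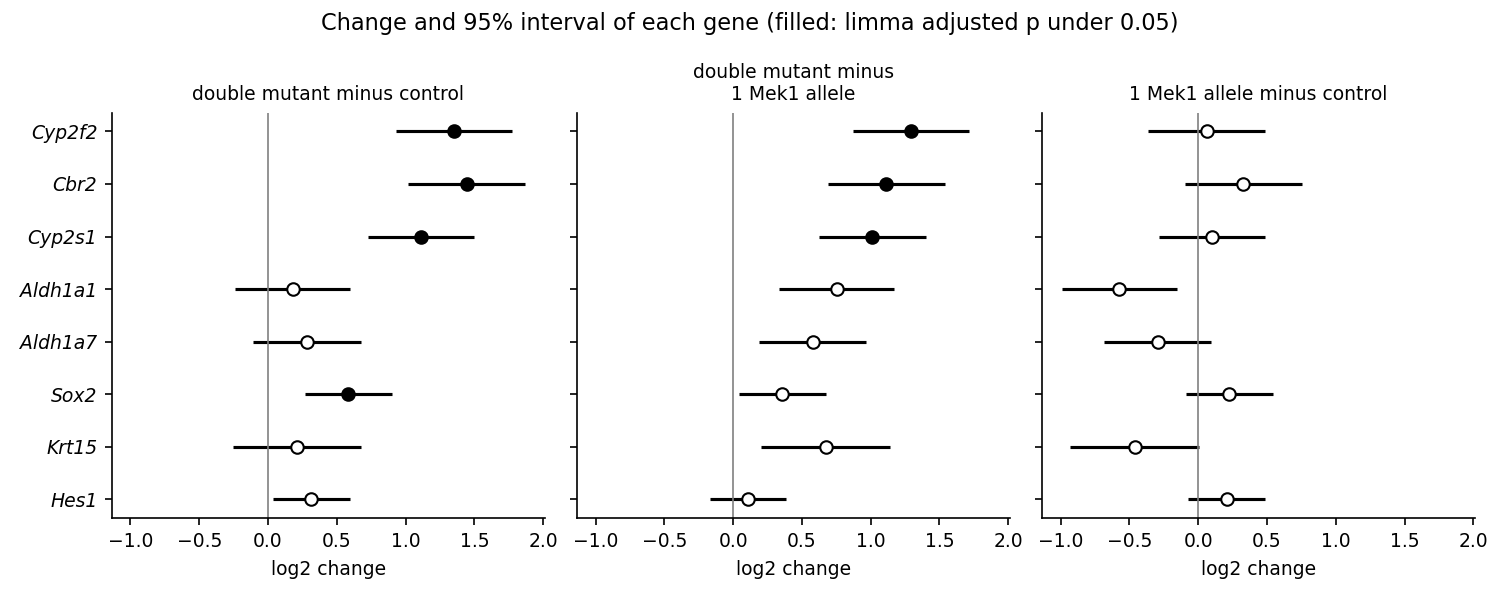
Log2 difference of each of the 8 genes in the 3 comparisons, with 95% intervals from the limma fit over 12 arrays; filled points passed the test. Cyp2f2, Cbr2 and Cyp2s1 lie above 1 in double mutants against both other groups, and all 8 estimates are above 0 in both of those comparisons.

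The SOX2 transcription factor marks and maintains the proximal airway epithelium. Its level was 5.22, 5.43, 5.30 and 5.81 in controls, with 3 of 4 arrays above background. It was 5.44, 5.60, 5.92 and 5.70 with 1 Mek1 allele, where 3 of 4 were above background, and 6.22, 5.77, 5.98 and 6.12 in double mutants, where all 4 were. The highest control lay 0.03 above the lowest double mutant, so these groups overlapped by 1 array. Sox2 rose by 0.58 ± 0.15 against controls, or 1.5-fold (interval 0.27 to 0.90, adjusted p 0.0469 by limma, rank 262). This call is marginal: it was kept in 4 of 12 fits that left out 1 array and in 5 of 17 other settings, and the adjusted p ran from 0.0225 to 0.333. On the authors' log2 values the difference was 0.23. Against 1 Mek1 allele the difference was 0.36 (interval 0.04 to 0.67, adjusted p 0.351), and between 1 Mek1 allele and control it was 0.23 (adjusted p 0.453).

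Hes1, a transcriptional repressor that Notch signalling switches on, was measured brightly on every array. Its level was 9.37, 9.35, 9.26 and 9.41 in controls. It was 9.40, 9.49, 9.79 and 9.52 with 1 Mek1 allele, and 9.92, 9.63, 9.30 and 9.78 in double mutants. Controls varied least, with an SD of 0.06, and 3 of 4 double mutants lay above all of them, as did 3 of 4 lungs with 1 Mek1 allele. The difference of 0.31 ± 0.13 against controls (interval 0.04 to 0.59) did not pass the test across all genes (adjusted p 0.204 by limma). The differences were 0.11 against 1 Mek1 allele (interval -0.17 to 0.39, adjusted p 0.811) and 0.21 between 1 Mek1 allele and control (-0.07 to 0.48, adjusted p 0.435).

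Krt15 encodes a type I keratin found in basal cells of stratified and airway epithelia. Its level was 6.73, 6.59, 6.57 and 6.68 in controls. It was 6.09, 6.86, 5.56 and 6.23 with 1 Mek1 allele, and 6.75, 7.05, 6.51 and 7.13 in double mutants. The lungs with 1 Mek1 allele were the most variable (SD 0.53, against 0.08 in controls and 0.29 in double mutants), and 3 of 4 of them were above background. The difference of 0.21 between double mutant and control did not pass (interval -0.26 to 0.68, adjusted p 0.641 by limma), nor did those of 0.67 against 1 Mek1 allele (0.20 to 1.14, adjusted p 0.231) and -0.46 between 1 Mek1 allele and control (-0.93 to 0.01, adjusted p 0.302). Without replicate 2 with 1 Mek1 allele, the difference between double mutant and 1 Mek1 allele passed, at 0.90 (adjusted p 0.0486).

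Aldh1a1 and Aldh1a7 encode aldehyde dehydrogenases. ALDH1A1 oxidises retinaldehyde to retinoic acid, and Aldh1a7 is a close copy of the gene beside it on chromosome 19. The starts of both genes are shown to let the likeness of the copies be seen. The last 150 bases of the Aldh1a7 window (chr19:20727507-20727656, minus strand) and of the window at the second listed start of Aldh1a1 (chr19:20601868-20602017, plus strand), both from RefSeq on GRCm38.p6, were identical at 142 positions, or 94.7%, when set side by side without gaps. At the first listed start of Aldh1a1 the same comparison gave 44 identical positions of 150, or 29.3%, so the likeness shown is that of the second start. The 8 positions that differ are in capitals.
Aldh1a1: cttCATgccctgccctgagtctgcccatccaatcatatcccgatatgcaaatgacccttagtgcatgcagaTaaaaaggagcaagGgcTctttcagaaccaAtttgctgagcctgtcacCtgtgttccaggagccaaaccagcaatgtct
Aldh1a7: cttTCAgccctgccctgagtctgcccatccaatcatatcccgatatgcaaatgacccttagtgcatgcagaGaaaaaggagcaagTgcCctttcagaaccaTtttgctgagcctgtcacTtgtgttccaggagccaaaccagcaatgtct

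The sequences of the array's probes were not used here, so how far either probe also reports the other copy is uncertain. The Aldh1a1 level was 5.92, 5.72, 5.67 and 6.25 in controls. It was 5.57, 5.14, 5.12 and 5.43 with 1 Mek1 allele, where 2 of 4 arrays were above background, and 6.64, 6.10, 5.80 and 5.75 in double mutants. The arrays with 1 Mek1 allele thus lay below all 8 others. None of the differences passed the test across all genes: 0.18 for double mutant against control (interval -0.24 to 0.60, adjusted p 0.659 by limma), 0.75 ± 0.19 against 1 Mek1 allele (0.34 to 1.17, adjusted p 0.114) and -0.57 ± 0.19 for 1 Mek1 allele against control (-0.99 to -0.16, adjusted p 0.159).

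The Aldh1a7 level was 8.90, 9.61, 9.61 and 9.32 in controls. It was 9.22, 9.23, 8.55 and 9.28 with 1 Mek1 allele, and 9.72, 9.70, 9.66 and 9.49 in double mutants. The double mutants lay above all lungs with 1 Mek1 allele and overlapped with the controls. The differences were 0.28 for double mutant against control (interval -0.11 to 0.67, adjusted p 0.422 by limma), 0.58 ± 0.18 against 1 Mek1 allele (0.19 to 0.97, adjusted p 0.212) and -0.29 for 1 Mek1 allele against control (-0.68 to 0.10, adjusted p 0.429). None passed. The first was 0.13 without control replicate 1, and the last was -0.12 without replicate 3 with 1 Mek1 allele and -0.45 without control replicate 1. Across the 12 arrays the levels of Aldh1a1 and Aldh1a7 had a Pearson correlation of 0.57, and of 0.12 once each group's mean was subtracted.

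Counted together, 4 of the 8 genes rose and 0 fell in double mutants against controls, where 2.06% of all genes tested were called higher and 1.23% lower. The median difference of the 8 was 0.45, beside -0.0036 over all genes. In 3 of the 8 every double mutant lay above every control, which held for 7.42% of all genes. Against 1 Mek1 allele, 3 of the 8 rose and 0 fell, where 0.421% of all genes were called higher and 0.144% lower, and the medians were 0.71 and 0.0075. In 5 of the 8 the double mutants lay above all lungs with 1 Mek1 allele, as in 4.2% of all genes. Between 1 Mek1 allele and control limma called 0 of the 8. Of the 8, 1, Aldh1a1, had an unadjusted p under 0.05, as had 1404 of all 8311 genes. Of all genes, 0.325% were called higher and 0.409% lower in that comparison, and 5.68% had every lung with 1 Mek1 allele below every control, as Aldh1a1 did. The first comparison shares its double mutants with the second and its controls with the third, so the 3 are not independent. Because the 8 genes were chosen with earlier results of these data known, the shares of all genes give scale and are not a test.

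Calls against 1 Mek1 allele depended on single arrays over the whole array, not just for these genes. None of the 8 genes passed without replicate 4 with 1 Mek1 allele, without double mutant replicate 2 or without double mutant replicate 4, fits in which 5, 2 and 3 of all 8311 genes passed, against 47 with all arrays. Without replicate 1 with 1 Mek1 allele, 1 of the 8 and 22 of all genes passed. Over all 12 omissions the differences of Cyp2f2, Cbr2 and Cyp2s1 stayed between 0.84 and 1.43, and the highest adjusted p was 0.0952.

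**Figure D3:**
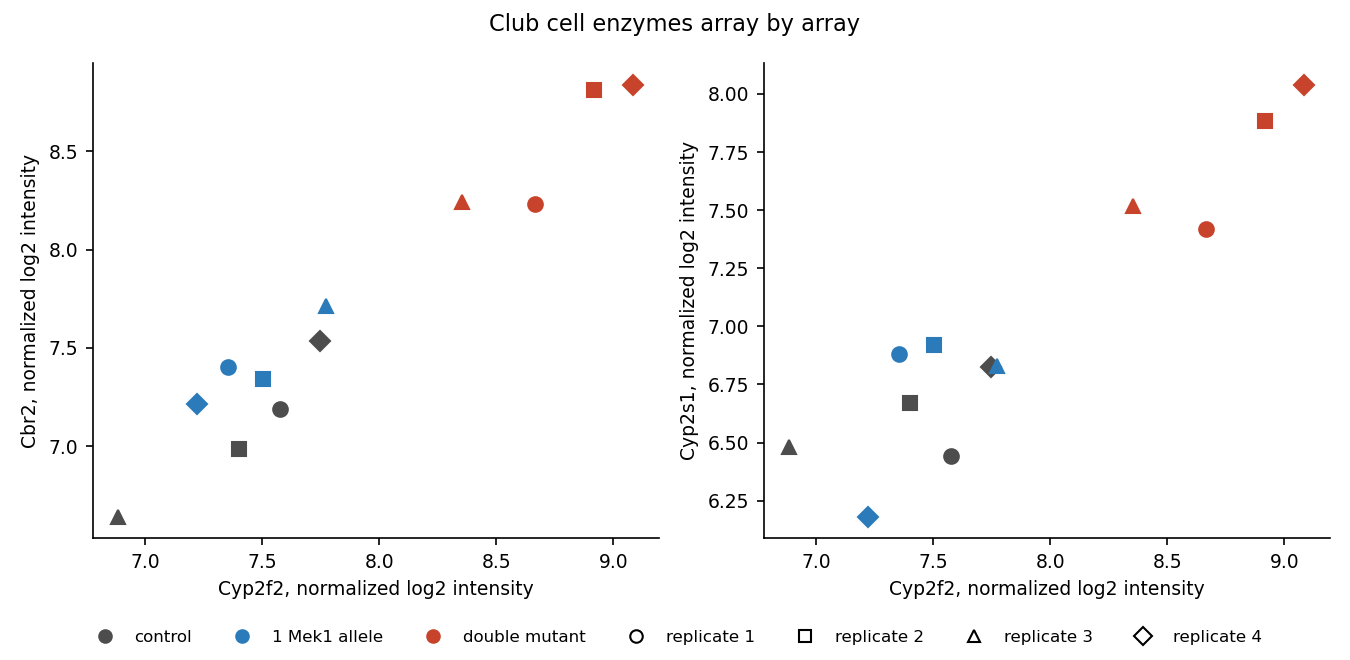
Normalized log2 levels of Cbr2 and Cyp2s1 plotted against Cyp2f2, 1 point per array, with a colour for each genotype and a mark for each replicate number. The 4 double mutants lie at the upper right of both panels, and over the 12 arrays Pearson's r was 0.98 with Cbr2 and 0.93 with Cyp2s1.

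Cyp2f2, Cbr2 and Cyp2s1 also varied together within the groups. Over the 12 arrays, which differ in genotype and brightness, Pearson's r was 0.98 for Cyp2f2 with Cbr2, 0.93 for Cyp2f2 with Cyp2s1 and 0.93 for Cbr2 with Cyp2s1. With each group's mean subtracted it was 0.93, 0.63 and 0.68. Sox2 and Hes1 had r of 0.75, and 0.58 within groups. Within groups Hes1 had r of 0.62 with Cyp2f2, near that of Cyp2f2 with Cyp2s1, and 0.40 with Cbr2 and 0.12 with Cyp2s1. Sox2 with Cyp2f2 had r of 0.77, and 0.39 within groups. Cyp2f2 and Aldh1a7, by contrast, had r of 0.35 over all arrays and -0.62 within groups.

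The likeness of other genes to Cyp2f2 over the 12 arrays was ranked by Pearson's r, leaving out the genes described here. Among those with an established name, the most alike were Nrbp2 (0.95), Mycl (0.94), Espn (0.94), Kndc1 (0.94) and Itgb4 (0.93). Itgb4 encodes the integrin subunit of hemidesmosomes, which anchor epithelia to their basement membrane, and Espn an actin-bundling protein. The genes most like Cbr2, ranked in the same way, were Rasgrf1 (0.94), Ier3 (0.93), Cds1 (0.93), Kndc1 (0.93) and Espn (0.92). Within groups these values fell to between 0.56 and 0.85, with Itgb4 the highest for Cyp2f2. Mycl, a MYC family transcription factor, rose by 0.72 in double mutants against controls (adjusted p 0.00178 by limma), and Kndc1 rose by 0.95 (adjusted p 0.00601). Nrbp2 and Itgb4 differed by 0.38 and 0.54 without passing (adjusted p 0.0546 and 0.0668).

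A Y-linked transcript, Eif2s3y, was high on 4 arrays (6.97 to 7.48, against 4.28 to 5.10 on the others): control replicate 3, replicate 2 with 1 Mek1 allele, and double mutant replicates 2 and 4. These 2 double mutants had the highest levels of Cyp2f2, Cbr2 and Cyp2s1, and that control had the lowest Cyp2f2 and Cbr2 of all 12 arrays. Among the arrays without the transcript (3, 3 and 2), Cyp2f2 ran from 7.40 to 7.75 in controls, 7.22 to 7.77 with 1 Mek1 allele and 8.35 to 8.67 in double mutants. Cbr2 ran from 6.99 to 7.53, 7.21 to 7.71 and 8.23 to 8.24, and Cyp2s1 from 6.44 to 6.82, 6.18 to 6.88 and 7.42 to 7.52. With only 2 double mutants among them, these ranges are a description and not a test. With the transcript as a covariate, 3 of the 8 genes and 188 of all 8311 passed against controls, and 0 of the 8 and 2 of all genes against 1 Mek1 allele. The differences from 1 Mek1 allele were then 1.29 for Cyp2f2, 1.10 for Cbr2 and 0.94 for Cyp2s1 (adjusted p 0.0532, 0.0642 and 0.0622 by limma).

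Other genes of the club and secretory lineage did not move as one group. Of 20 listed, 5 passed the filter, and in double mutants against controls 2 rose and 1 fell (median 0.41). Gsto1, a glutathione transferase, rose by 0.41 (adjusted p 0.0201 by limma), and Ces1d, a carboxylesterase, rose by 0.60 (adjusted p 0.0247). Cyp4b1, another P450 of club cells, fell by 0.80 (adjusted p 0.0104), and its probe was above background on 4 controls, 3 lungs with 1 Mek1 allele and 1 double mutant. Cldn10, a claudin of early club cells, differed by 0.45 (adjusted p 0.0916) and Foxa3 by -0.30, without passing. Of these 5 genes, 0 passed against 1 Mek1 allele, and Gsto1 alone passed between 1 Mek1 allele and control (0.41, adjusted p 0.0498).

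The defining secretory product of club cells was at the edge of detection at this stage. Scgb1a1 was above background on 1 control, 0 lungs with 1 Mek1 allele and 2 double mutants, and Scgb3a1 on 0 of 12 arrays, so neither was tested. Basal cell genes were likewise mostly below background: Trp63, Krt5, Krt4 and Krt13 on all 12 arrays, and Krt14 on all but 1. Of 9 listed, Ngfr (-0.45) and Sox21 (0.34) were tested against controls, and neither passed. The club cell label thus rests here on enzymes, with Scgb1a1 and Scgb3a1 at or below background and Scgb3a2 not analysed here, and Krt15 was measured without Krt5 or Krt14.

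In the Notch pathway, 16 of 29 listed genes were tested, and 1 rose and 0 fell in double mutants against controls (median 0.04). Numb, an inhibitor of Notch receptors, rose by 0.68 (adjusted p 0.0269 by limma). The receptor gene Notch4 differed by 0.24, Ncstn, for a subunit of the gamma-secretase that cuts Notch, by 0.05, the feedback regulator Nrarp by -0.12 and Hes6 by 0.33, none of them passing. The Notch list had 0 limma calls against 1 Mek1 allele and 0 between 1 Mek1 allele and control, where 0 and 1 genes had an unadjusted p under 0.05. Among retinoid enzymes, binding proteins and receptors, the system in which ALDH1A1 works, 8 of 19 were tested and limma called 0 in each of the 3 comparisons, with 0, 1 and 1 at an unadjusted p under 0.05. Of all 8311 genes, 1609, 977 and 1404 had an unadjusted p under 0.05 in the same 3 comparisons. The receptor genes Rarg, Rxrb and Rarb differed by 0.40, 0.14 and -0.12 against controls, and the reductase gene Rdh11 by -0.16.

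**Figure D4:**
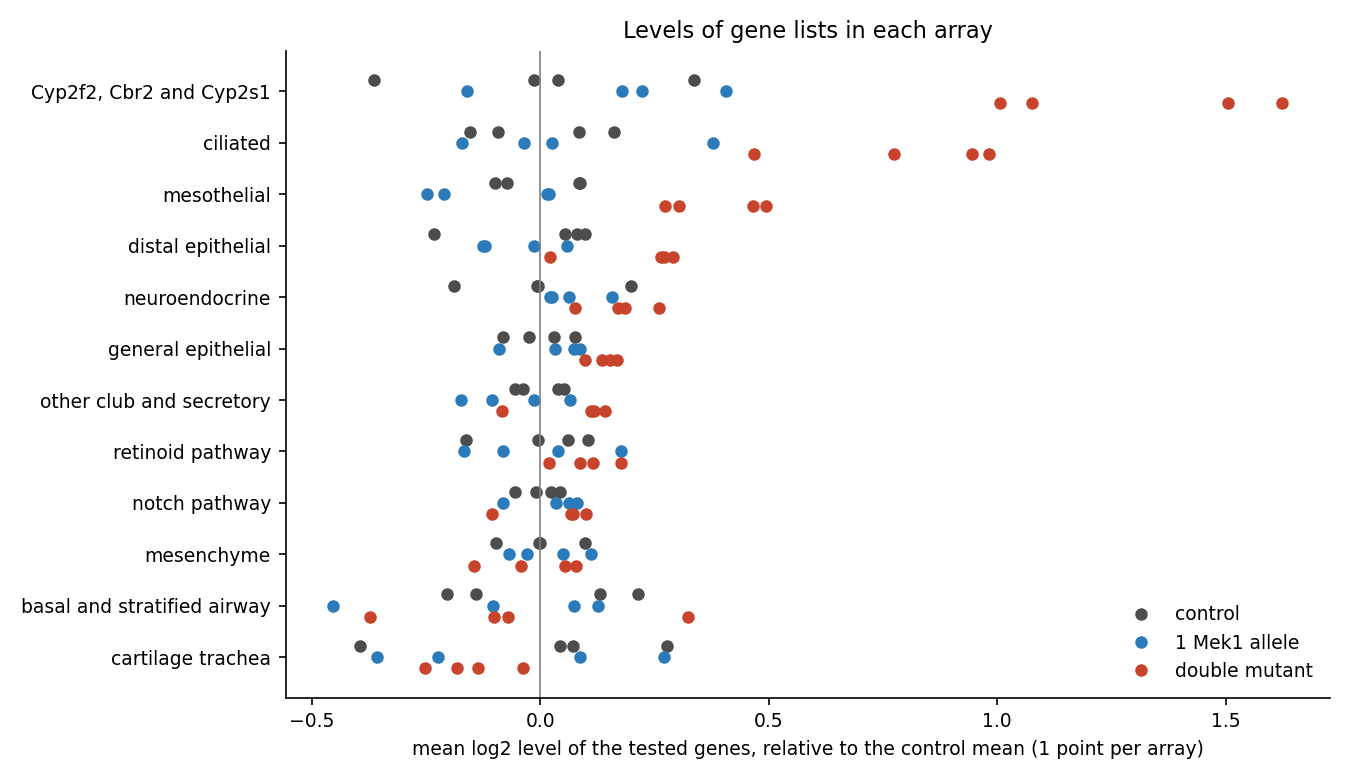
Mean log2 level of each marker list on each array, relative to the control mean, for the 3 genotypes, 1 point per array on a horizontal axis. The mean of Cyp2f2, Cbr2 and Cyp2s1 lies between 1.01 and 1.62 in double mutants, the ciliated list between 0.47 and 0.98 and the general epithelial list between 0.10 and 0.17.

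Markers of other cells were read beside the 3 enzymes. The mean of the 17 general epithelial genes, relative to the control mean, ran from -0.08 to 0.08 in controls, from -0.09 to 0.09 with 1 Mek1 allele and from 0.10 to 0.17 in double mutants. None of the 17 passed in any comparison by limma, and 4, 3 and 2 had an unadjusted p under 0.05 (double mutants against controls, against the other mutant group, and that group against controls). Of all 8311 genes, 1609, 977 and 1404 had one, so these counts give scale and are not a test. The differences against controls were 0.17 for Krt8, 0.27 for Cldn3, 0.05 for Esrp1 and -0.10 for Cldn6, genes of epithelial filaments, junctions and splicing. The mean of Cyp2f2, Cbr2 and Cyp2s1, which were grouped after their values were seen, ran from -0.36 to 0.34, -0.16 to 0.41 and 1.01 to 1.62 in the same groups. With the general epithelial mean as a covariate, Cyp2f2 and Cbr2 passed against controls, at 1.73 and 1.79 (adjusted p 0.0177 for both by limma), and Cyp2s1 did not, at 1.09 (0.0749). In the comparison with 1 Mek1 allele Cyp2f2 passed at 1.60 (adjusted p 0.034), and Cbr2 at 1.40 (0.0778) and Cyp2s1 at 0.998 (0.174) did not. In these fits 27 of all genes passed against controls and 3 against 1 Mek1 allele. The general epithelial mean of every double mutant lay above that of all other arrays, so these fits cannot separate it from genotype.

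Genes of ciliated cells, the other main cell type of the airway, were higher as well. Of 13 listed, 9 were tested, and 6 rose and 0 fell in double mutants against controls (median 1.02). The rises were 0.96 for the centriole regulator gene Ccno (adjusted p 0.00916 by limma), 1.02 for Tekt1 (0.00916), 1.25 for Rsph1 (0.0263) and 1.24 for Dynlrb2 (0.0475), all parts or makers of motile cilia. Mcidas and Spag6l also rose, by 1.06 and 1.17 (adjusted p 0.0225 and 0.0107). They were above background on 4 of 4 double mutants, on 3 and 2 controls and on 1 and 2 lungs with 1 Mek1 allele. Foxj1, the master regulator of motile cilia, differed by 0.11, Tppp3 by 0.19 and Dnaic1 by 0.14, without passing. Against 1 Mek1 allele, Ccno (0.90), Tekt1 (0.91), Spag6l (1.17) and Mcidas (1.09) passed, with limma adjusted p from 0.0321 to 0.0499. The ciliated mean ran from -0.15 to 0.16 in controls, -0.17 to 0.38 with 1 Mek1 allele and 0.47 to 0.98 in double mutants.

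Of 11 tested distal epithelial genes, Muc1 rose by 0.57 against controls (adjusted p 0.0353 by limma). Sftpc (0.28), Sftpb (0.32), Abca3 (0.29) and Etv5 (0.02) did not pass, nor did Napsa, which differed most (0.92, adjusted p 0.0593). Of the 11 differences, 9 were positive, and 4 had an unadjusted p under 0.05, as had 1609 of all 8311 genes. The distal mean ran from -0.23 to 0.10 in controls, -0.13 to 0.06 with 1 Mek1 allele and 0.02 to 0.29 in double mutants. Of 5 tested mesothelial genes 3 rose: Upk3b by 0.65 (adjusted p 0.0142), Rspo1 by 0.95 (0.0163) and the keratin gene Krt19 by 0.69 (0.0225). Rspo1 alone also passed against 1 Mek1 allele (0.96, adjusted p 0.0381). Its probe was above background on 4 controls, 2 lungs with 1 Mek1 allele and 4 double mutants. The mesothelial mean was -0.10 to 0.09 in controls, -0.25 to 0.02 with 1 Mek1 allele and 0.27 to 0.49 in double mutants. Of the neuroendocrine genes, Uchl1 (0.20) and Syp (-0.31) did not pass. Insm1 was above background on 1 control, 0 lungs with 1 Mek1 allele and 4 double mutants, so it entered the test through the double mutants, and its call (adjusted p 0.0353) is given as a description. None of the 11 mesenchymal genes passed, and 2 had an unadjusted p under 0.05 (Acta2 -0.18, Vim 0.07, Col1a1 0.04, Pdgfra -0.37), and of the cartilage genes Col2a1 (0.34) and Hapln1 (-0.65) were tested and did not pass. The part of these cell types in the rises of Cyp2f2, Cbr2 and Cyp2s1 was not tested.

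Cyp2f2 and Cyp2s1 lie next to each other among the tested genes of chromosome 7. Of the 10 nearest tested genes of each, 5 on either side in RefSeq order, the other enzyme was the only one called in double mutants against controls. The differences of the rest ran from -0.21 to 0.37. Cbr2 lies on chromosome 11 beside Dcxr, which encodes another carbonyl reductase and rose by 0.65 (adjusted p 0.0161 by limma), the only call among the 10 neighbours of Cbr2. Krt15, elsewhere on chromosome 11, had Krt19 as the only called gene among its 10 neighbours. The neighbours of Aldh1a1, Aldh1a7, Sox2 and Hes1 (chromosomes 19, 19, 3 and 16) gave 0 calls of 10 each. Neighbours were looked at after the values were seen. The altered genes Map2k1, Map2k2 and Twist2 lie on chromosomes 9, 10 and 1, so none of the 8 genes shares a chromosome with them.

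**Figure D5:**
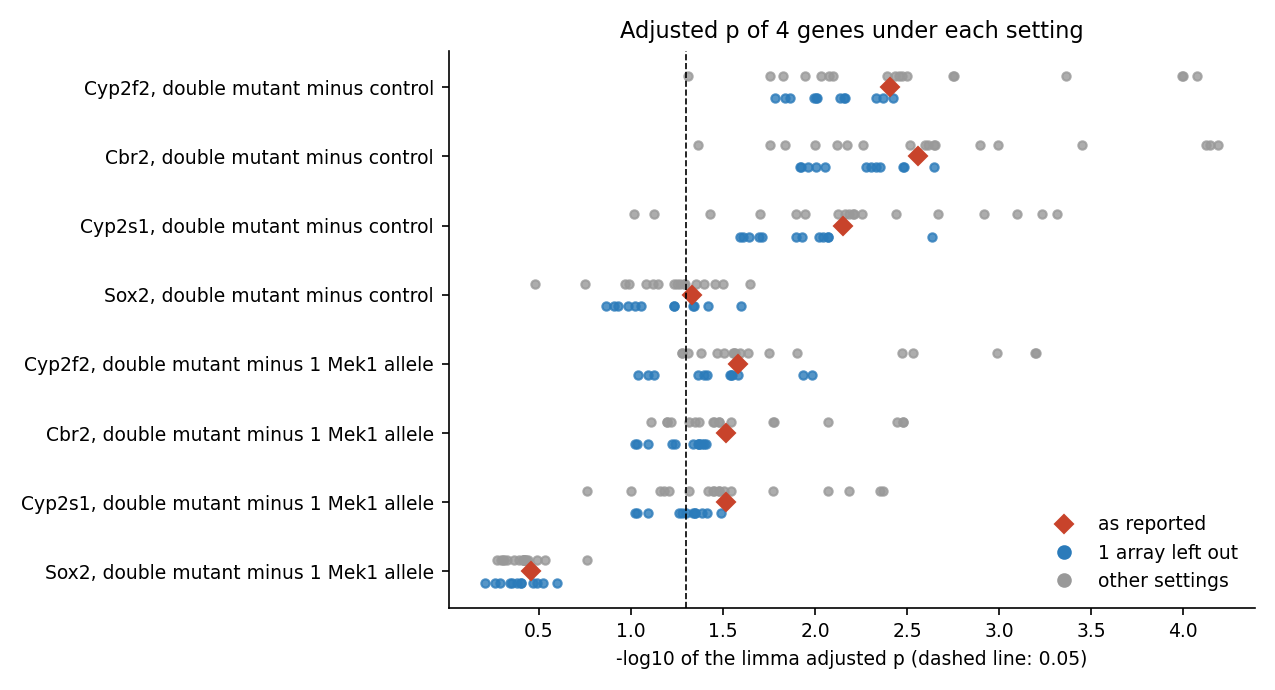
Adjusted p on a -log10 axis for Cyp2f2, Cbr2, Cyp2s1 and Sox2 in double mutants against each other group, with a diamond for the reported fit, 1 point per fit without 1 array and 1 per other setting, and a dashed line at 0.05. Cyp2f2 and Cbr2 against controls lie past the line in every setting, while Sox2 against controls and the differences from 1 Mek1 allele fall on both sides of it or short of it.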

How the data were processed

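Biotin-labelled total RNA of 12 lung specimens was measured on Illumina bead arrays. The deposited scanner table gives a linear intensity and a detection p-value per probe, with no scaling between arrays, per the file headers. The authors' deposited log2 values followed quantile-normalized log2 intensity with a median absolute difference of 0.00386 (column medians 6.91 to 6.93); their software is not named in the sources used. They served as an alternative.

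Background was fitted by normexp from the detection p-values (offset 16), followed by quantile normalization (limma 3.58.1, R 4.3.3). Probes had a detection p under 0.01 on at least 4 arrays. Names came from the platform annotation (23978 probes with 1 symbol, 0 with several, 1719 with none), and 0 symbols changed when looked up in RefSeq. The probe with the highest mean stood for a gene, which left 8311 genes. Group means were fitted over all 12 arrays with lmFit and eBayes (9 residual degrees of freedom), two-sided, with Benjamini-Hochberg adjustment over all genes and a threshold of 0.05. The array number limits the precision. The procedure was tested on simulated data. Within-group correlations ran from 0.987 to 0.995, with no duplicate arrays, and no slide or batch is recorded.

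Same-numbered replicates did not deviate together (correlations -0.23 to 0.18), so numbers were not used as pairs. The 8 genes are all named, and of each list every gene past the threshold plus up to 4 of the highest. Members and lists were chosen with earlier results of these data known. Alternatives were other background, scaling, filter, probe and variance choices, covariates and leaving out arrays; the spread estimated over all probes was added after seeing the data. Promoters matched 6 of the 8 genes by symbol. Protein sequences were not used here.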

Additional observations from a re-analysis of the deposited data

Results flagged for a closer look

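Of 72 groups of 4 arrays looked at, 4 held an array that stood apart by Dixon's criterion at the 95% level, and chance gives about 1 in 20. All 4 were in lungs with 1 Mek1 allele. The Cyp2s1 level of replicate 4 was 6.181, with the other arrays of its group between 6.83 and 6.92. The Aldh1a7 level of replicate 3 was 8.549, with the others between 9.22 and 9.28. Replicate 4 was also low for Muc1, at 9.351 against 9.88 to 9.96, and for Dynlrb2, at 6.708 against 7.73 to 7.89.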

How the results depend on the processing

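A total of 30 other settings was tried, 12 of which left out 1 array. Of the single-gene values, 652 kept their direction and side of the threshold, 47 lost their call, 1 gained one and 11 changed sign; none of the 11 had passed. Of the 8 genes, 4 passed in double mutants against controls, 2 did without the 2 brightest arrays (35 of all genes, against 273), and 3 to 4 when 1 array was left out. Against 1 Mek1 allele 3 passed, and 0 did in a fit of only the 8 arrays compared, 0 with the Y-linked covariate, 1 with the epithelial covariate and 0 to 3 when 1 array was left out. Over all genes 1, 2 and 3 passed in the first 3 of these fits, against 47, with Cyp2f2 at 1.293, 1.294 and 1.595. With the replicate number as a block 1 of the 8 and 11 of all genes passed; the numbers do not pair the samples. Between 1 Mek1 allele and control 0 passed in all fits. With array brightness as a covariate the differences between 1 Mek1 allele and control changed sign for Cyp2f2 (-0.3766), Cbr2 (-0.05418), Cyp2s1 (-0.04278) and Aldh1a7 (0.1566). Without the 2 brightest arrays Cyp2f2 was -0.1978 in that comparison and Aldh1a1 was -0.01578 in double mutants against controls. With the epithelial covariate Aldh1a7 was -0.1603 and Krt15 -0.2192 in double mutants against controls. When 1 array was left out, Cyp2f2 between 1 Mek1 allele and control ran from -0.1114 (without control replicate 3) to 0.1752, and was -0.04276 without replicate 3 with 1 Mek1 allele, and Aldh1a1 in double mutants against controls ran from -0.009962 (without double mutant replicate 1) to 0.3001. The cause was not tested. Requiring detection on all 12 arrays left 5 of the 8 genes, without Sox2, Aldh1a1 and Krt15, the last through 1 array.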
